A study of Mus musculus with 2 samples.

Results

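Cells of the early pharyngeal and cranial mesoderm were picked out of a single-cell RNA-seq data set of chimeric mouse embryos by the joint presence of Tbx1 and Ebf1 transcripts. A cell counted as a member when it held at least 2 spliced UMIs (unique molecular identifiers, each counting 1 captured RNA molecule) of Tbx1 and at least 1 of Ebf1. It also had to hold fewer than 3 UMIs each of Epcam (an epithelial adhesion protein), Tnnt2 (cardiac troponin T) and Meox1 (a somite transcription factor), with less than 0.5% of its spliced UMIs from the embryonic globins Hba-x, Hbb-bh1 and Hbb-y. This rule found 243 of 18233 cells.

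Pharyngeal and cranial mesoderm lies in front of the somites and around the pharynx. It gives rise to muscles of the head and branchial arches, to head mesenchyme and, as the second heart field, to cells added to the growing heart tube. Tbx1 is a T-box transcription factor of the pharyngeal region and Ebf1 is a helix-loop-helix transcription factor of mesenchyme and B cells. Foxd1 is a forkhead factor, and Fst encodes follistatin, a secreted binder of activins and BMPs. On GRCm38, Tbx1 lies on chromosome 16 (18580979 to 18590671, minus strand), Ebf1 on chromosome 11 (44617317 to 45008091, plus strand), and Foxd1 (98354242 to 98359305, plus strand) and Fst (114452290 to 114458951, minus strand) on chromosome 13. All values are sums over each gene's transcripts.

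The embryos were made by injecting tdTomato-labelled mouse embryonic stem cells of 1 clone with a 38 bp frameshift in exon 4 of Gata1, the erythroid transcription factor gene, into C57BL/6 blastocysts. A pool of 6 chimeras was dissociated and sorted into tdTom+ cells, which carried the Gata1 mutation, and tdTom- cells of the wildtype host. The labelled age was E8.5 for the tdTom+ library and E8.6 for the tdTom- library. Both fractions came from the same pool, which was harvested at E8.5 per the study's methods, so the labelled difference in age is in doubt. Each fraction gave 1 10x library, so genotype, cell line background, sex of the cells and library cannot be told apart, and no difference between the fractions was tested. The intervals given here are exact 95% intervals that cover counting error only.

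There were 109 members among 8981 tdTom+ barcodes (1.21%, interval 0.998% to 1.46%) and 134 among 9252 tdTom- barcodes (1.45%, interval 1.21% to 1.71%). The intervals overlapped. The denominators are all barcodes of the tables, some as low as 379 spliced UMIs, and the study kept fewer cells after quality control and cell type assignment. At least 2 Tbx1 UMIs were found in 421 tdTom+ and 405 tdTom- cells, and 155 and 185 of these also had an Ebf1 UMI. Among the latter, the Meox1 limit was exceeded in 36 and 42 cells, more than at the Epcam, Tnnt2 or globin limits together.

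Members held a median of 16666 spliced UMIs in the tdTom+ library and 15341 in the tdTom- library, and their sums were 1946894 and 2215039 UMIs. The other cells had medians of 17609 and 16004. Scrublet, a doublet caller, marked 3 tdTom+ and 8 tdTom- members. There were 18 barcodes shared by the libraries, and 1 member carried such a barcode. Mitochondrial UMIs made up a median of 1.17% and 1.11% in members, against 2.08% and 2.09% in other cells and 1.93% and 1.91% in the somitic comparison group described below. Gata1 itself had 1 UMI in tdTom+ and 2 in tdTom- members. Over the other cells it stood at 6.80 and 29.7 CPM (UMIs of a gene per 1000000 spliced UMIs). A frameshift can leave the transcript in place, so these levels are no check of the lost protein.

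The markers that set the rule were high by construction and are given as a description. In tdTom+ members Tbx1 reached 260 CPM and Ebf1 193 CPM, and in tdTom- members they reached 290 and 233 CPM. Of the markers that the rule did not use, Foxd1 reached 255 and 315 CPM, against 26.1 and 33.3 CPM in the other cells of the same library, or 9.78-fold and 9.47-fold higher. Fst reached 455 and 523 CPM against 41.3 and 46.0 CPM, or 11.0-fold and 11.4-fold higher. Both genes were also abundant in the somitic comparison group, at 251 and 264 CPM for Foxd1 and 418 and 371 CPM for Fst, so high Foxd1 and Fst did not set the members apart from somites. The label of the population comes from the choice of Tbx1 and Ebf1, whose levels in members are no support for it. Apart from the rule, it rests on the further genes below that differed from somites. Some of those were picked after their values were seen.

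Most members carried these transcripts, in amounts that varied widely from cell to cell. Foxd1 ranged from 0 to 31 UMIs per cell with a median of 3 in tdTom+ members, and from 0 to 24 with a median of 3 in tdTom- members. Fst ranged from 0 to 39 (median 6) and from 0 to 40 (median 8). Foxd1 UMIs were found in 77.1% of tdTom+ members and 86.6% of tdTom- members, against 2.54% and 2.81% of endothelial cells, which should lack the gene. Fst UMIs were found in 83.5% and 84.3%, against 2.86% and 2.25% of endothelial cells. Median depths of the endothelial cells were 18442 and 16810 UMIs. After thinning each cell to 5000 UMIs the Foxd1 shares were 54.1% and 66.4%, and those of endothelial cells 0.962% and 1.14%.

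The 25 tdTom+ and 28 tdTom- members with exactly 2 Tbx1 UMIs had 270 and 243 CPM of Foxd1. The 44 and 49 cells left out with only 1 Tbx1 UMI had 186 and 203 CPM. In tdTom+ cells Fst stood the other way, at 294 CPM inside and 334 CPM outside. The 33 and 21 members with 1 Ebf1 UMI had 212 and 358 CPM of Foxd1, and the 63 and 45 cells without one had 73.7 and 73.6 CPM. Only 2 tdTom+ cells lay just outside the Tnnt2 limit, only 2 tdTom- cells just outside the Meox1 limit, and none lay just outside the Epcam limit. No cell that met the other criteria had between 0.4% and 0.6% globin UMIs.

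**Figure D1:**
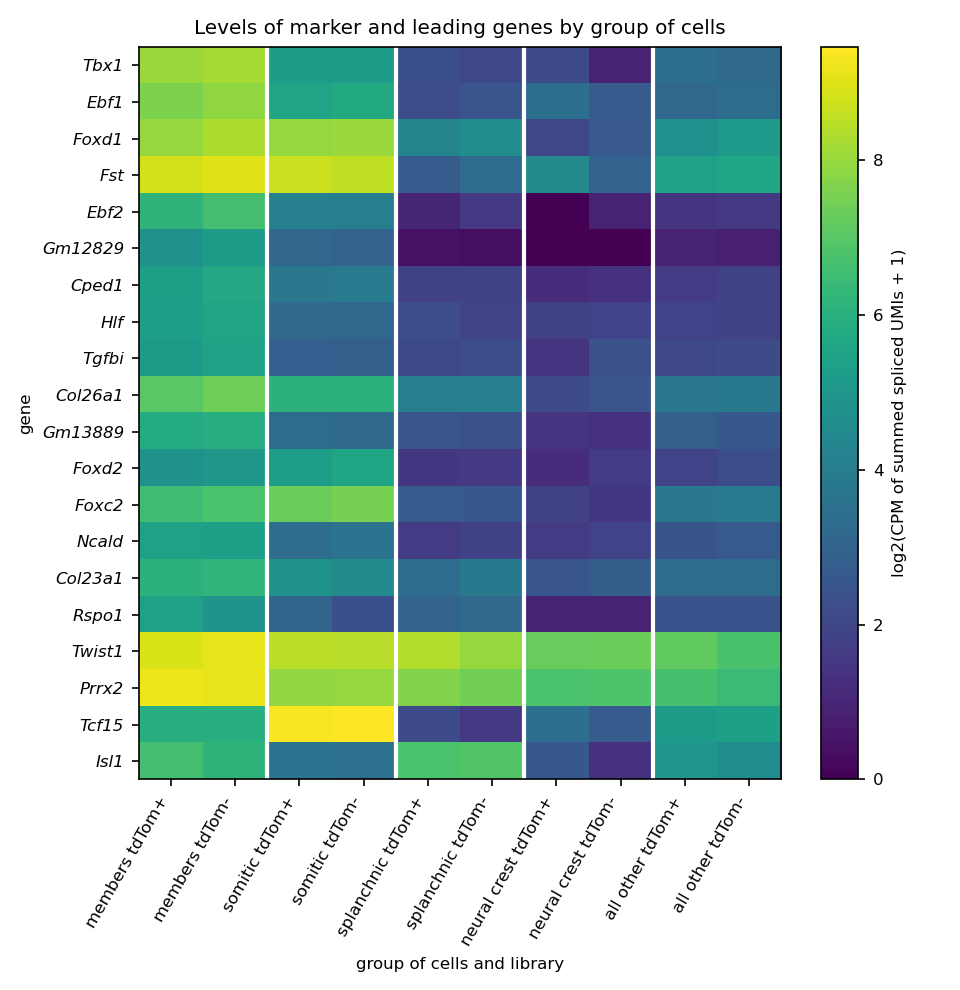
Colour shows log2(CPM + 1) of summed spliced UMIs for the marker genes, leading genes of the members and 4 further genes, with 1 column for each library of each group of cells (members, somitic, splanchnic and neural crest comparison groups, all other cells). Ebf2 stood at 69.9 and 100 CPM in members and at 16.4 and 15.3 CPM in somitic cells, while Tcf15, which helped to define the somitic group, stood at 659 and 702 CPM there and at 58.0 and 61.8 CPM in members.

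The genes farthest above the other cells were Ebf2, Gm12829, Cped1 and Hlf. A gene was counted when its level in members was at least 4-fold that in the other cells in both libraries. Genes with at least 50 UMIs in the members of each library were compared, without the 8 genes of the rule, and 34 of 4577 were counted (0.743%). The UMI minimum favours genes that are high in members, and the count describes cells that were chosen by their transcripts, so it carries no test.

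Ebf2, a relative of Ebf1, led the list with 69.9 and 100 CPM in tdTom+ and tdTom- members, against 1.77 and 2.07 CPM in the other cells. Its log2 ratios were 5.30 (5.00 to 5.60) and 5.60 (5.34 to 5.85). Ebf2 UMIs were present in 56.9% and 70.9% of members but in 0 of 315 tdTom+ endothelial cells and 1.12% of tdTom- endothelial cells. The third relative, Ebf3, followed the same direction with log2 ratios of 3.51 and 3.44. EBF proteins are known to bind DNA as dimers.

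The non-coding RNA gene Gm12829 came next, with log2 ratios of 4.97 and 5.48, and Cped1 had 4.16 and 4.30. Hlf, a leucine zipper transcription factor, had 3.75 and 4.09. Several genes of matrix and secreted products followed. Col26a1, a collagen gene, reached 132 and 166 CPM, 10.3-fold and 12.6-fold the level of the other cells. Tgfbi, an adhesive matrix protein, was 10.8-fold and 12.1-fold higher, and Col23a1, a transmembrane collagen, 7.18-fold and 8.17-fold. Rspo1, a secreted enhancer of Wnt signalling, had log2 ratios of 3.29 and 2.77. Gm13889 was at 3.17 and 3.53, and the calcium sensor gene Ncald at 3.20 and 2.87.

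Forkhead transcription factors of mesoderm and mesenchyme were also among the leading genes. Foxd2 had log2 ratios of 3.36 and 3.04, and Foxc2 2.87 and 2.97. Neither separated members from somites, where Foxc2 reached 158 and 180 CPM against 93.5 and 109 CPM in members and Foxd2 37.5 and 47.3 against 28.3 and 31.2 CPM. Among the other genes counted were the receptors Pdgfrb (2.11 and 2.56) and Npr3 (2.69 and 2.56), the cartilage regulator Sox9 (2.26 and 2.09) and the collagen gene Col2a1 (2.47 and 2.36).

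Unspliced UMIs come from other molecules than the spliced ones and were not used by the rule. In them Ebf2 had log2 ratios of 5.00 and 5.29, Cped1 3.92 and 4.06, Col26a1 3.29 and 3.49, Ncald 3.17 and 2.91, and Fst 3.30 and 3.21. Col23a1 had 2.35 and 2.60, Rspo1 1.64 (-0.27 to 3.04) and 3.12, and Tgfbi 3.34 and 2.48 (0.80 to 3.79). The last 2 genes rested on 4 to 9 unspliced UMIs in the members of a library. The tdTom+ value of Rspo1 and the tdTom- value of Tgfbi lay below their spliced ratios of 3.29 and 3.59. Ebf1 reached 4.36 and 4.21 in unspliced UMIs, and 70.6% and 71.5% of its molecules in members were unspliced, against 70.5% and 74.0% in other cells. The same cells were summed in both layers, so the layers are not independent samples. Foxd1, Foxd2, Foxc2 and Gm13889 had no unspliced UMI in any cell.

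For the gene lists, a 2-fold threshold in both libraries was used over genes with at least 100 UMIs in all cells of each library. Of 12348 such genes, 298 were at least 2-fold higher in members (2.41%) and 730 at least 2-fold lower (5.91%), and the medians over all genes were -0.04 and -0.01.

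Head mesenchyme transcription factors were high as a group, with 11 of 16 counted as higher, 1 as lower, and median log2 ratios of 1.95 and 2.07. Several of them also belong to the leading genes above. The summed level of the list was 1770 and 1900 CPM in members, and somitic cells stood nearest to it of the 3 comparison groups, at 1310 and 1370 CPM. Prrx2, a homeobox gene of craniofacial mesenchyme, had 592 and 555 CPM and was found in 100% and 97.8% of members. It was present in 25.7% and 19.1% of endothelial cells, and its median per member was 9 and 8 UMIs. Twist1, a helix-loop-helix factor of mesenchyme, had 489 and 547 CPM with log2 ratios of 1.81 and 2.36. Foxl2, known in head mesenchyme around the eye and in the ovary, had 3.52 and 4.09.

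Regulators of branchiomeric muscle, the muscle of the pharyngeal arches, were high as well, with 6 of 10 compared genes counted as higher and 1 as lower. Their median log2 ratios were 1.83 and 2.07. The list summed to 180 and 221 CPM in members, 107 and 117 CPM in somitic cells and 59.0 and 65.5 CPM in all other cells. Six2 had 4.85 and 5.15, Eya1, a transcriptional cofactor, 2.65 and 2.31, and Eya4 2.65 and 2.48. Eya1 stood at 24.1 and 23 CPM in members and at 14.2 and 19.1 CPM in somitic cells. Tcf21, a factor that acts early in head muscle, had 2.14 and 3.14, from 28 and 42 UMIs. Musculin, Msc, another early regulator of this muscle, had 4 and 8 UMIs in members and too few in all cells to be compared. The muscle determination genes Myf5, Myf6, Myod1 and Myog had no UMI in any member. The exact upper limits of a count of 0 were 1.89 and 1.67 CPM.

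**Figure D2:**
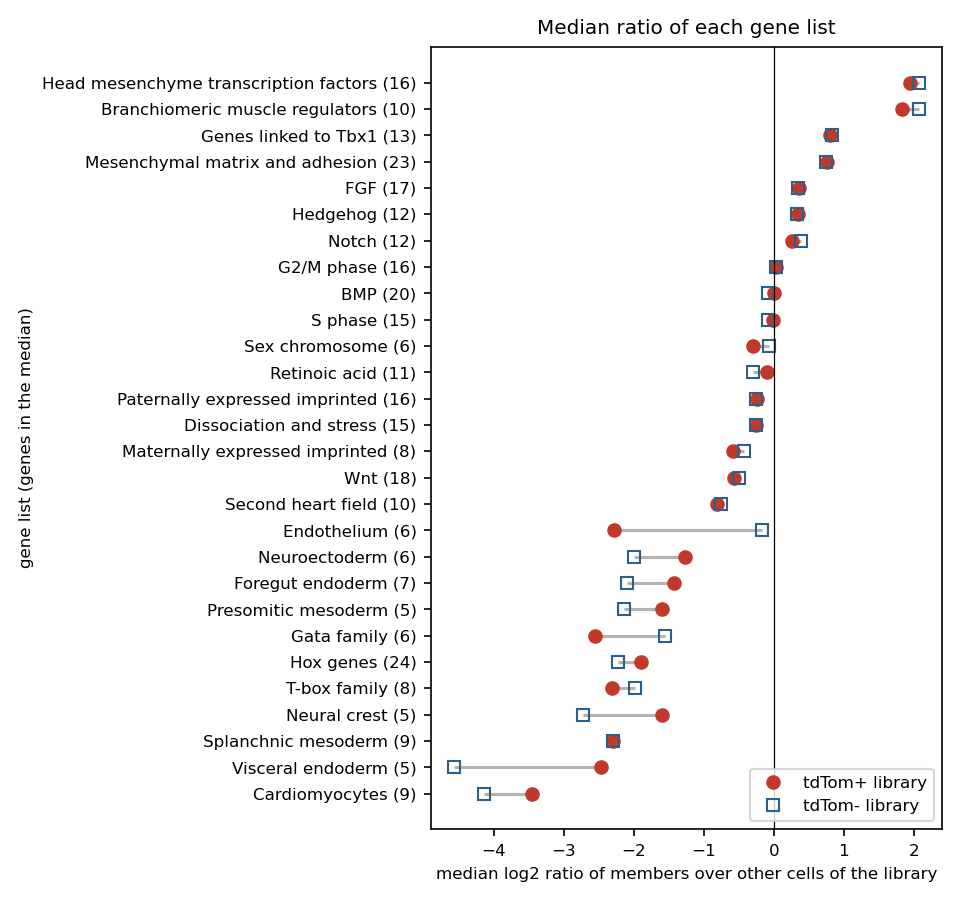
Each point is the median log2 ratio of members over the other cells of the same library for a gene list, with the number of genes in the median in brackets and lists of under 5 genes left out; filled circles are the tdTom+ library and open squares the tdTom- library. Head mesenchyme factors (1.95 and 2.07) and branchiomeric muscle regulators (1.83 and 2.07) lay to the right, and cardiomyocyte genes (-3.45 and -4.14) and visceral endoderm genes (-2.47 and -4.56) to the left.

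Among other T-box genes Tbx18, known in the sinus venosus and anterior somite, was higher in members, with log2 ratios of 2.50 and 2.49. Its level in somitic cells was higher still, 25.9 and 27.9 CPM against 11.8 and 12.2 CPM in members. The other 7 of 8 compared T-box genes were counted as lower. Tbx20, a cardiac T-box gene, stood at -2.55 and -2.93, and T, the gene of the primitive streak and notochord, at -3.40 and -1.70. Of genes known to be linked to Tbx1, 2 of 14 were counted as higher, Eya1 among them, and none as lower.

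FGF signalling was represented by the ligand Fgf8 at 126 and 129 CPM and by some readouts of the pathway. Of 17 genes 3 were counted as higher and 5 as lower. Dusp6, a phosphatase induced by FGF signalling, had log2 ratios of 1.25 and 1.24, Spred1 1.20 and 1.16, and Etv1 1.41 and 1.09 (1.24 and 0.96 without the highest member of each library). Not counted were Etv5 (0.82 and 0.90), Spry1 (0.51 and 1.17), Spred2 (0.36 and 0.15) and Spry4 (0.32 and 0.35). Spry2 (0.26 and -0.10) and Etv4 (-0.21 and -0.30) were not counted either. The receptor genes Fgfr2 (-1.36 and -1.23) and Fgfr3 (-1.24 and -3.66) were among the lower ones. The median of the list was 0.36 and 0.35. Fgf8 had 1.20 and 0.83 and Fgf10 0.80 and 1.26, so each passed the threshold in 1 library only. The ligand gene Fgf3 was lower, at -3.21 from 7 UMIs in tdTom+ members and with 0 UMIs, or at least 8.56-fold lower, in tdTom- members.

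In the retinoic acid list 0 of 12 genes were counted as higher and 2 as lower. Aldh1a2, which makes retinoic acid in somites and splanchnic mesoderm, had 33 and 15 UMIs in members, 2.24-fold and 7.19-fold below the level of the other cells. The retinoic acid degrading enzyme gene Cyp26c1, which had too few UMIs over all cells to be compared, had 19 and 39 UMIs in members, or 9.76 and 17.6 CPM against 0.446 and 0.523 CPM elsewhere (log2 ratios 4.45 and 5.07). Its UMIs were found in 15.6% and 23.1% of members and in 0.635% and 0% of endothelial cells. Its relative Cyp26a1 had 33.4 and 52.4 CPM, with 0.85 and 1.03.

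Other signalling lists held few higher genes. Hedgehog genes had 1 of 12 higher (Hhip, a target and inhibitor of the pathway, at 2.15 and 2.27) and 1 lower (Shh). Wnt genes had 0 of 18 higher and 6 lower, and Notch genes 0 of 13 higher and 2 lower. In the BMP list 2 of 20 were higher, the antagonist genes Fst and Grem1 (2.52 and 1.20), and 6 lower, including the ligands Bmp2 (-3.17 and -2.31) and Bmp4 (-1.83 and -1.22) and the target Msx1. Grem1 stood at 34.5 and 33.8 CPM in somitic cells, against 30.8 and 16.3 CPM in members. Of the Id genes of the BMP list, Id1 (0.66 and 0.81) and Id3 (0.68 and 0.92) stood higher by less than 2-fold. Id2 was at 0.07 and 0.44, and Id4 had 0 and 3 UMIs. The BMP list with Fst summed to 1330 and 1510 CPM in members, against 901 and 850 CPM in the other cells. Matrix and adhesion genes had 4 of 23 higher and 2 lower, the higher ones including Cdh11 (2.22 and 2.29), Vcan (1.39 and 1.51) and Fbn2 (1.43 and 1.56). S phase and G2/M phase genes had 0 of 15 and 0 of 16 in either direction.

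Most markers of other cell types were low. Neural crest genes were nearly absent, with 0 and 2 UMIs of Sox10, no UMI of Foxd3, and 0 and 1 of Tfap2a. The summed level of the 6 neural crest genes was 5.65 and 6.32 CPM, against 737 and 843 CPM in the neural crest comparison group. Of 9 cardiomyocyte genes all were counted as lower, and of 9 splanchnic genes 7. Somitic genes were mixed, with 1 of 4 compared genes counted as higher and 1 as lower. Uncx had log2 ratios of 3.20 and 2.73, Tcf15 0.74 and 0.64, and Pax3 -1.69 and -3.22, while Pax1 had no UMI and Meox2 had 0 and 2. Uncx stood at 17.9 and 28.4 CPM in the somitic group, against 9.76 and 10.4 CPM in members. The 6 somitic genes summed to 87.8 and 86.2 CPM in members and 1380 and 1520 CPM in the somitic group.

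RNA of endothelial and blood genes was present. The 6 endothelial genes summed to 21.6 and 45.6 CPM in tdTom+ and tdTom- members, against 67.4 and 48.4 CPM in all other cells and 4.0 and 2.82 CPM in the somitic group. Of these genes Emcn, which encodes the endothelial sialomucin endomucin, was counted as higher in members, with log2 ratios of 1.13 and 1.01 from 17 and 20 UMIs, and 2 were counted as lower. In each library 8 Emcn UMIs lay in 1 member, and without it the ratios were 0.23 and 0.29. An endothelial UMI was found in 13 tdTom+ and 16 tdTom- members. Cdh5 and Cldn5 together had 6 UMIs in tdTom+ members and 47 in tdTom- members, and 43 of the 47 lay in 3 cells. The 6 blood genes summed to 198 and 834 CPM in members, beside 202 and 783 CPM in the somitic group. Nearly all of this was embryonic globin RNA, which the rules for members and for somitic cells both limit.

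The members were next compared with 3 groups of mesodermal or mesenchymal cells defined by other markers. The somitic group held Meox1 and Tcf15 (354 tdTom+ and 404 tdTom- cells), the splanchnic group Foxf1 and Isl1 (564 and 377), and the neural crest group Sox10 and Foxd3 (114 and 163). The genes that define a group differ by construction, and so does Meox1, which the members may hardly hold.

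Against somites 21 of 8197 genes were at least 4-fold higher in members of both libraries (0.256%) and 55 at least 4-fold lower (0.671%). The 5 genes with the largest differences were all higher in somites. Aldh1a2 stood at 395 and 471 CPM there, 23.3-fold and 69.5-fold above the level in members. Fgf18 stood at 39.7 and 72.1 CPM against 1.03 and 1.35 CPM, and Pcdh19, Wfdc21 and Meox2 had at most 2 UMIs in the members of either library. Higher in members were Isl1, the LIM homeobox gene of the second heart field (9.04-fold and 6.50-fold higher), Foxl2 (21.1 and 31.6 against 2.67 and 1.13 CPM) and Kdr, a VEGF receptor gene (108 and 93.0 against 13.5 and 13.7 CPM). Kdr is also an endothelial gene, and in members without a UMI of the 6 endothelial genes it stood at 82.1 and 68.8 CPM. Isl1, Foxl2 and Kdr were not among the largest differences and were picked after their values were seen.

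Against the splanchnic group 58 of 8554 genes were higher (0.678%) and 121 lower (1.41%). Fst stood at 455 and 523 CPM in members and 5.82 and 8.84 CPM in splanchnic cells, or 78.2-fold and 59.1-fold. Ebf2 was 73.1-fold and 51.0-fold higher and Gm12829 78.3-fold and 127-fold. Pitx1, a homeobox gene of the posterior and oral region, was lower, at 5.14 and 8.13 CPM against 387 and 326 CPM. Isl1, which helped to define the splanchnic group, stood at 99.1 and 70.4 CPM in members and 109 and 119 CPM there.

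Against neural crest 86 of 6575 genes were higher (1.31%) and 39 lower (0.593%). Foxd1 had 497 and 698 UMIs in members and 7 and 17 in neural crest cells, which made its level 85.0-fold and 59.9-fold higher in members. Ebf2 had 0 and 3 UMIs in neural crest cells, and in the tdTom+ library it was at least 54.2-fold higher in members. Tfap2b and Tfap2a, which mark neural crest and surface ectoderm, were the strongest in the other direction, with 0 and 1 UMIs each in members and 123 and 175 CPM for Tfap2b in neural crest cells.

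Hox genes, which are used from the hindbrain level backwards, were sparse in members. Of 28 Hox genes compared, 20 were counted as lower than in the other cells and 0 as higher. A Hox UMI of any of the 39 genes was found in 45.9% of tdTom+ members (36.3% to 55.7%) and 35.1% of tdTom- members (27.0% to 43.8%). The shares were 96.3% and 96.8% in somitic cells, 99.8% and 99.7% in splanchnic cells, 49.1% and 38.7% in neural crest cells, and 89.5% and 89.3% in endothelial cells. After thinning to 5000 UMIs they were 29.4% and 20.9% in members, 77.6% and 80.8% in somitic cells, 96.1% and 97.3% in splanchnic cells, and 27.2% and 21.6% in neural crest cells. The intervals of members lay below those of somitic and splanchnic cells and overlapped those of neural crest cells in both libraries, thinned or not.

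Paralogue groups 1 to 4, the anterior ones, gave 177 and 136 Hox UMIs in members, or 90.9 and 61.4 CPM. Groups 5 to 9 gave 92 and 119 UMIs, or 47.3 and 53.7 CPM, and groups 10 to 13 gave 5 UMIs in either library. Somitic cells held 350 and 405 CPM of groups 1 to 4 and 102 and 135 CPM of groups 5 to 9. Neural crest cells held 98.3 and 93.4 CPM of the former and 39.5 and 48.6 CPM of the latter. Splanchnic cells held more of groups 5 to 9 (602 and 691 CPM) than of groups 1 to 4 (293 and 367 CPM). They also held 163 and 112 CPM of groups 10 to 13, the posterior ones, against 31.0 and 16.8 CPM in all cells other than members. The splanchnic group thus differed from members in Hox levels as well as in the markers that define it.

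Members with a Hox UMI differed from those without in more than Hox genes. Genes at least 2-fold higher with a Hox UMI in both libraries numbered 11 of 4577 (0.240%), and 0 of the 4577 were at least 2-fold lower. All splits of the members described here use transcripts of the same cells and carry no test. Crabp2, a retinoic acid binding protein gene, had 141 UMIs in tdTom+ members with a Hox UMI and 17 in those without, and 91 and 37 in tdTom- members. The non-coding genes Hoxaas3 and Hotairm1 of the Hoxa cluster had log2 ratios of 5.27 and 5.59, and 3.67 and 4.37. Hand2, a heart and arch transcription factor, had 22 UMIs with and 1 without in tdTom+ members, and 23 and 2 in tdTom- members. Aldh1a2 had 24 UMIs with and 9 without a Hox UMI in tdTom+ members and 11 and 4 in tdTom- members, but 13 of the 24 lay in 1 cell, and without the highest cell of each library its log2 ratios were 0.42 and 1.37. Of 10 second heart field genes 7 were higher with a Hox UMI in both libraries by any amount and none lower, against 25.3% higher and 27.7% lower of 4577 genes, and Nkx2-5, Mef2c and Hand2 were at least 2-fold higher. Without the highest cell of each library Nkx2-5 stood at 1.54 and 0.80. Somite genes were mixed in the same setting. Meox1, which the rule limits, stood at 3.14 and 2.30, Tcf15 at 1.01 and 0.81, and Uncx at -1.53 and -0.59. Of 16 head mesenchyme factors 1 was higher and 9 lower, and of 23 matrix and adhesion genes 5 were higher and 11 lower. Only 3, 9 and 13 genes of these lists had the 50 UMIs per library that the 4577 genes were held to. Toward the other side lay Foxd1 (-1.11 and -0.74), Foxl2 (-1.75 and -1.33) and Ebf2 (-0.84 and -0.96). Foxl2, with 41 UMIs in tdTom+ members, was under the minimum of 50 UMIs and so not among the 4577 genes. Members with a Hox UMI were deeper in the tdTom- library, with a median of 16539 UMIs against 14663, and similar in the tdTom+ library, with 16966 against 16370.

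The members were also divided by Isl1. An Isl1 UMI was found in 57 of 109 tdTom+ members (52.3%) and 60 of 134 tdTom- members (44.8%), against 19.7% and 20.2% of endothelial cells. At 5000 UMIs per cell the shares were 34.9% and 26.1% in members and 7.05% and 8.52% in endothelial cells. Median depths with and without Isl1 were 16151 and 16915 UMIs in tdTom+ members and 15341 and 15478 in tdTom- members. On the sides of this division the shares with a Hox UMI were 47.4% with and 44.2% without Isl1 in tdTom+ members and 31.7% and 37.8% in tdTom- members, with overlapping intervals.

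Of the 10 second heart field genes, 1 (Isl1) was counted as higher in members than in the other cells and 3 as lower. The median log2 ratios of the list were -0.81 and -0.75. Within the members Nkx2-5, Fgf8, Fgf10 and Mef2c were at least 2-fold higher with Isl1 in both libraries, 4 of the other 9 genes of that list. Higher by any amount in both libraries were 6 of the 9, against 1213 of 4576 genes over all (26.5%), but only 2 of the 9 had the 50 UMIs per library that those genes were held to. At the 2-fold threshold 10 of 4576 were higher in both libraries (0.219%) and 17 at least 2-fold lower (0.372%). Nkx2-5, a cardiac homeobox gene, had 29 UMIs with Isl1 and 1 without in tdTom+ members, and 40 and 2 in tdTom- members. Fgf8 stood at 181 and 67.5 CPM with and without Isl1 in tdTom+ members and at 224 and 53.4 CPM in tdTom- members. Fgf10 had log2 ratios of 1.66 and 2.28 and Mef2c, a target of Isl1, 1.98 and 1.80. Hand2 had 0.30, with an interval that included 0, and 2.73 (1.16 to 4.73), and Gata4 rested on 2 and 4 UMIs in all. When the highest cell of each library was left out, Hand2 stood at 0.99 and 2.27. Gata6, at 1.33 and -0.49, was not higher in both libraries, but without the highest cells, of which the tdTom- one held 12 Gata6 UMIs, it stood at 1.79 and 0.14. The genes Tbx5 and Wnt11, with at most 2 UMIs on a side, were lower in both. When each cell was thinned to 5000 UMIs, 3 of the 9 genes were higher in both.

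Outside that list Igfbpl1 stood at 228 and 28.5 CPM in tdTom+ members with and without Isl1, and at 158 and 34.0 CPM in tdTom- members. Nkx2-6, a pharyngeal homeobox gene, had log2 ratios of 4.10 and 3.19, Tlx1 2.25 and 4.47, and the head muscle regulator Tcf21 2.13 and 2.42. Of 16 head mesenchyme factors 9 were lower with Isl1 in both libraries and 1 higher, and of 23 matrix and adhesion genes 13 were lower and 3 higher, by any amount, against 29.0% lower and 26.5% higher of the 4576 genes. Only 9 and 13 genes of these lists had the 50 UMIs per library, and the counts resemble those of the Hox division. At least 2-fold lower were Twist2 (-1.66 and -3.25) of the former and Col3a1 (-1.81 and -3.07), Col5a2, Pdgfra and Cxcl12 of the latter. Without the cell of each library with the most Col3a1 UMIs its log2 ratios were -0.86 and -2.68. Leaving out the highest cells likewise put Col5a2 at -0.91 and Cxcl12 at -0.90 in tdTom- members. The log2 ratios of Foxd1 were -0.89 and -0.92 and those of Fst -0.78 and -0.61. Lum, a matrix proteoglycan gene, had -2.34 and -1.71, Acta2, smooth muscle actin, -3.12 and -1.73, Pdgfra, a receptor of mesenchyme, -1.49 and -1.54, and the somite gene Tcf15 -1.29 and -1.83. In tdTom+ members 10 of the 11 Lum UMIs with Isl1 lay in 1 cell. When the highest cell of each library was left out, Lum stood at -5.77 and -1.54, Acta2 at -2.59 and -1.17, and Tlx1 at 3.55 and 4.27.

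**Figure D3:**
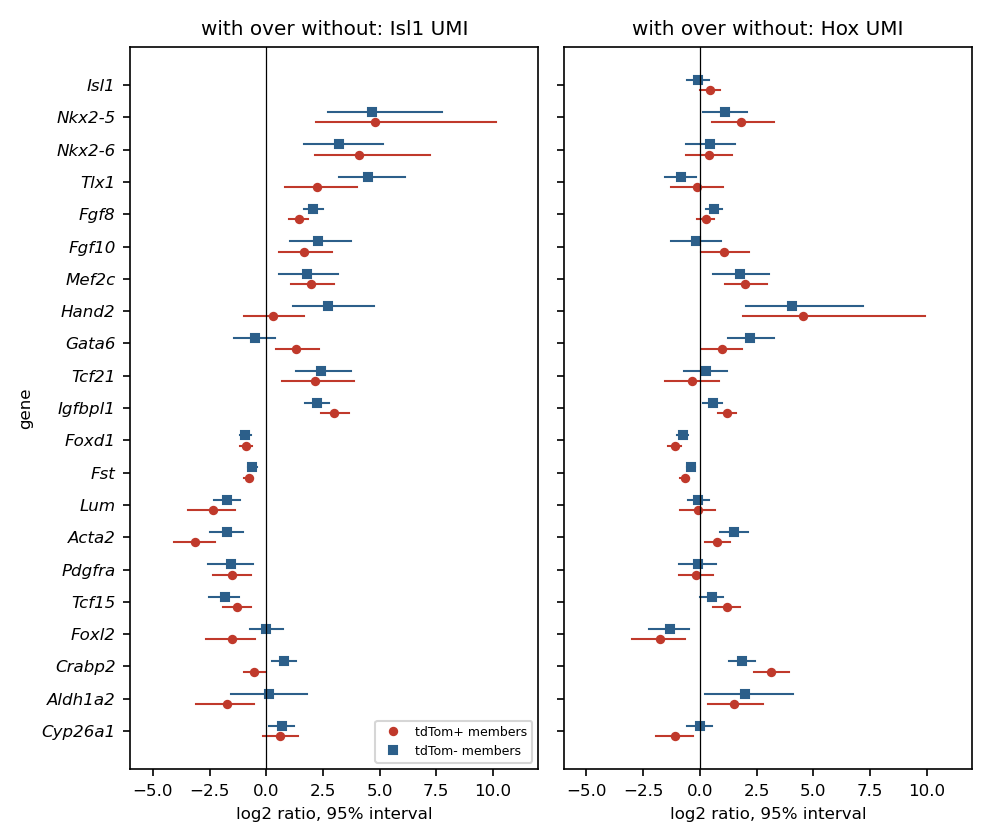
Log2 ratios of members with over members without an Isl1 or Hox UMI are plotted for 21 genes, with circles for tdTom+ and squares for tdTom- members and bars for exact 95% counting intervals; genes with 0 UMIs on a side and the splitting gene itself are not drawn. Nkx2-5 lay at 4.78 and 4.66 in the Isl1 panel and Hand2 at 4.54 and 4.07 in the Hox panel.

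The tdTom+ and tdTom- members were then set side by side. Among 6674 genes with at least 50 UMIs over both fractions, 22 were at least 2-fold higher in tdTom+ members (0.330%) and 62 at least 2-fold lower (0.929%). The direction was the same in the other cells for 16 of the 22 and 52 of the 62 genes, and 2 and 14 were past 2-fold there.

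The genes that describe the population differed little. The log2 folds of tdTom+ over tdTom- members were -0.30 (-0.47 to -0.14) for Foxd1, -0.20 (-0.33 to -0.07) for Fst and -0.52 (-0.84 to -0.21) for Ebf2. Tbx1 stood at -0.16 and Ebf1 at -0.27, as chosen by the rule. None of the 13 head mesenchyme and 6 branchiomeric muscle genes with enough UMIs to be compared was past 2-fold in either direction.

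Among genes lower in tdTom+ members the 4 largest folds belonged to Xist and 3 imprinted genes, and the other cells stood in the same direction. Xist, the RNA of X inactivation, had 4 UMIs in tdTom+ and 630 in tdTom- members, a log2 fold of -7.11, against -6.38 in the other cells. Of 6 maternally expressed imprinted genes compared, 5 were at least 2-fold lower in tdTom+ members. The growth inhibitor gene Cdkn1c had 5 and 538 UMIs (-6.56 in members, -6.15 in other cells), Grb10 21 and 713 UMIs (-4.90 and -5.33), and Phlda2 16 and 169 UMIs (-3.21 and -2.62). Of the 169 Phlda2 UMIs 81 lay in 1 cell, and without it the fold was -2.30. Igf2r, which clears IGF2, had 27 and 123 UMIs and stood at -2.21 in the other cells. Of 12 paternally expressed genes 1 was at least 2-fold higher, Zdbf2 (1.36 in members, 0.92 in other cells), and their median was 0.63. Impact was at 1.21 and 1.55, and H13 at -1.79 and -1.39. Akr1e1 was at -2.09 and -1.85, and Erdr1, a gene of the sex chromosomes, at 1.70 and 1.50.

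**Figure D4:**
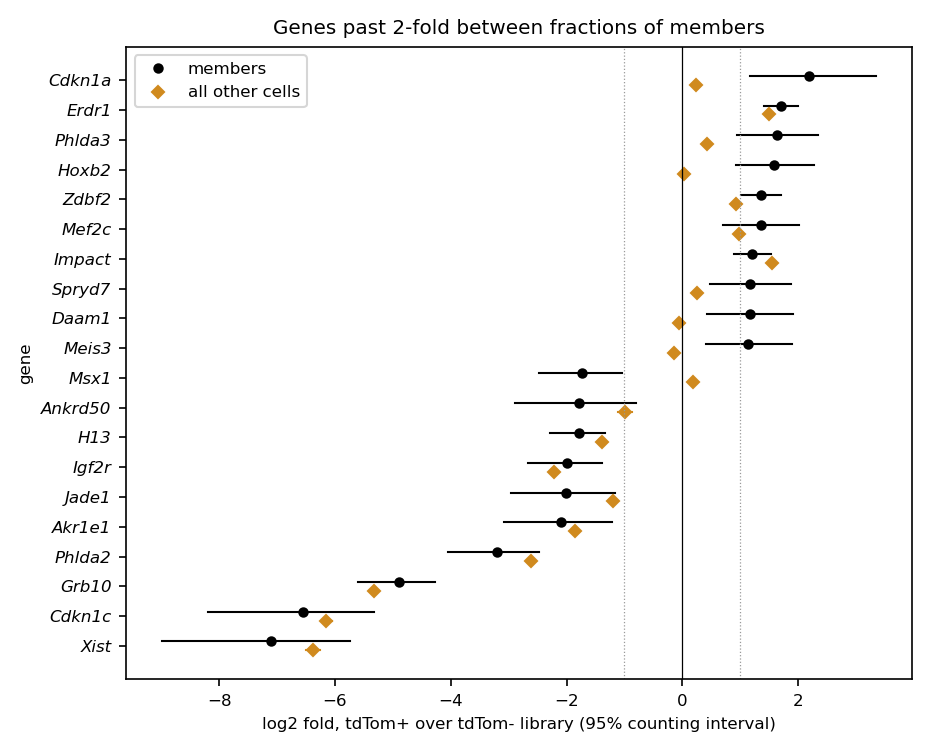
Log2 folds of the tdTom+ over the tdTom- library with exact 95% counting intervals are plotted for the 10 genes farthest in each direction, in members (black circles) and all other cells (orange diamonds); dotted lines mark 2-fold. Grb10 lay at -4.90 and -5.33, whereas Hoxb2 lay at 1.58 in members and 0.02 in other cells.

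For other genes the fold over all other cells was nearer to 0, and no difference between the folds was tested. Cdkn1a, the cell cycle inhibitor p21, had 40 UMIs in tdTom+ and 10 in tdTom- members (2.19, interval 1.16 to 3.35), against 0.23 in the other cells. In tdTom+ members 12 of the 40 UMIs lay in 1 cell, and without that cell the fold was 1.68. Cdkn1a was found in 11.0% and 2.99% of members. The shares of endothelial cells were 20.6% and 11.8%. Those cells were not shown to lack the gene, so they give no background share for it. In the somitic, splanchnic and neural crest groups its fold was 1.27, 0.68 and 1.21. Phlda3 had 68 and 25 UMIs (1.63, against 0.42) and Ccng1 34 and 19 UMIs (1.03, against 0.44, with 1.10, 0.90 and 1.28 in the somitic, splanchnic and neural crest groups). Cdkn1a, Phlda3 and Ccng1 are known targets of p53. Other known targets, picked like Ccng1 with these values in view, did not stand alike. Mdm2 was at -0.18, Bax at -0.07, Ei24 at 0.01 and Sesn2 at 0.44, all with intervals that included 0. Without the tdTom+ cell with the most Ccng1 UMIs its fold was 0.76. Zmat3 was at -1.09 from 12 and 29 UMIs and Trp53inp1 had 8 and 2 UMIs.

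Hoxb2 had 71 UMIs in tdTom+ and 27 in tdTom- members (1.58, interval 0.92 to 2.28), in 28.4% and 10.4% of members. The shares of endothelial cells were 54.6% and 48.9%. Most endothelial cells held a Hox UMI, so they give no background share for Hoxb2 either. The fold was 0.71 in the neural crest group and -0.09 in somitic cells. Meis3, a cofactor of anterior Hox proteins, was at 1.13, Rarb, a retinoic acid receptor gene that retinoic acid induces, at 1.04 (0.32 to 1.79), and Aldh1a2 at 1.32 (0.40 to 2.31) from 33 and 15 UMIs. Aldh1a2 was under the 50 UMIs asked for in this comparison, and without the cell that held 13 of its 33 UMIs the fold was 0.62. Cyp26a1 was at -0.65 (-1.11 to -0.20) and Cyp26c1 at -0.85 (-1.72 to -0.03). Of 9 retinoic acid genes compared between the fractions 1 was past 2-fold, higher, and their median was 0.10. Mef2c stood at 34.4 and 13.5 CPM (1.35, against 0.98 in the other cells, and 0.26 and 0.17 in somitic and splanchnic cells). Spryd7 and Daam1 had 1.16 each. Rarb and Daam1 both stood at 0.96 without the tdTom+ cell with the most UMIs of the gene. The shares of members with a Hox UMI given above (45.9% and 35.1%) move with these values, and their part in the folds was not tested. Among members without a Hox UMI 14 of 5123 compared genes were higher and 41 lower, and Meis3 stood at -0.25. Hoxb2 has no value there by construction.

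Lower in tdTom+ members was Msx1, a target of BMP signalling, with 22 and 83 UMIs (-1.73, interval -2.48 to -1.04), against 0.19 in the other cells. Of 13 genes of the BMP list compared between the fractions, Msx1 was the only 1 past 2-fold, and their median was -0.05. Id1, Id2 and Id3 stood at -0.02, -0.46 and -0.46. The placental growth factor gene Pgf (56 and 139 UMIs, -1.13) and Tlx1 (30 and 93 UMIs, -1.45) also stood lower, and the matrix genes Lum (-1.17), Dcn (-1.37) and Col1a2 (-1.04). Of 18 matrix and adhesion genes of the list compared between the fractions, Col1a2 was the only 1 at least 2-fold lower. None was at least 2-fold higher, and their median was -0.24. Lum and Dcn are not on that list. The endothelial gene Ecscr was at -1.64, with 13 and 46 UMIs. Ecscr stands beside the 43 Cdh5 and Cldn5 UMIs in 3 tdTom- members, whose part in its fold was not tested. Without the tdTom- cell with the most UMIs of the gene Ecscr stood at -0.94 and Col1a2 at -0.89. Without members that had a Cdh5 or Cldn5 UMI, 21 of 6518 compared genes were higher and 51 lower. The globin gene Hba-a1 stood at -1.44 in members and -1.42 in the other cells.

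Many of the lower genes lay together on chromosome 3. Of 24 compared genes that begin between 32 and 42 Mb (GRCm38), all 24 had a log2 fold below 0 in members and 11 were at least 2-fold lower, with a median of -0.99. The 5 genes in the 10 Mb before had a median of 0.19 and the 8 genes in the 10 Mb after 0.08. In the other cells 48 of 49 genes of the stretch were below 0 with a median of -0.97, in somitic, splanchnic and neural crest cells the medians were -1.04, -0.99 and -0.98, and in unspliced UMIs of members all 10 genes were below 0 with a median of -0.76. The stretch was noticed in these values, and its bounds were set on them. The number of copies of this stretch in the injected stem cells was not measured here, so the folds of its genes cannot be told apart from a difference in copies between the lines.

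Spry1, an inhibitor of FGF signalling (chromosome 3, 37639947 to 37644598), had 24 and 89 UMIs in members, a log2 fold of -1.70 (-2.42 to -1.04), and -1.04 in the other cells. Spry2 and Spry4, which lie elsewhere, were at 0.29 and -0.06, and the FGF readouts Dusp6 and Spred1 at 0.00 and -0.03. Jade1 (-2.01) and Ankrd50 (-1.78), 2 more genes of the stretch, stood at -1.20 and -0.99 in the other cells. The cyclin gene Ccna2 stood at -0.76 and Anxa5 at -1.50. Sox2, a gene of neural progenitors, was at -1.22 from 20 and 53 UMIs, and at -0.76 without the tdTom- cell that held 15 of them. Without the stretch 51 of 6650 compared genes were lower in tdTom+ members, and the 22 higher genes were the same in number.

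**Figure D5:**
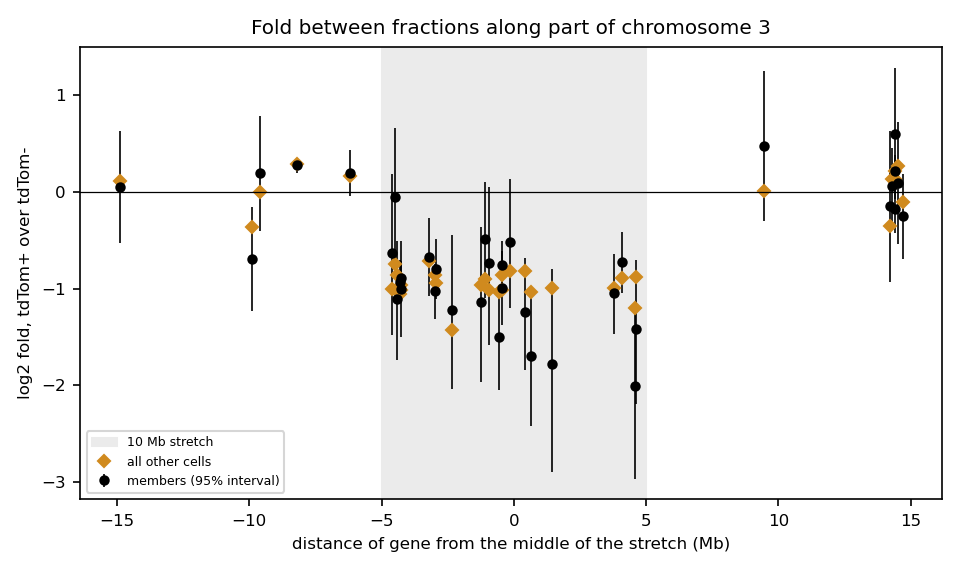
Log2 fold of the tdTom+ over the tdTom- library for genes on part of chromosome 3, plotted against the distance of each gene from the middle of the 10 Mb stretch (shaded); black circles with exact 95% counting intervals are members and orange diamonds all other cells. All 24 genes inside the stretch lay below 0 in members, with a median of -0.99.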

How the data were processed

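The 10x libraries, 1 per sorted fraction, were analysed. The deposited tables hold raw UMI counts per cell and gene, spliced and unspliced apart, which the authors made with Cell Ranger 3.0.2 on the mm10 genome and velocyto. The deposited quality metrics per cell include a mitochondrial percent. Cells had been called with emptyDrops by the authors, and no doublet or cell type call came with the tables, so all barcodes were used. All values were whole counts, and the 18233 cells held 325114793 spliced UMIs.

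Spliced UMIs were summed over cells and scaled to CPM. Members, comparison groups and gene lists were chosen with earlier results of these data known. With 1 library per fraction no p-value was computed. Ratios have exact conditional binomial intervals, shares exact Clopper-Pearson intervals, both at 95%. A group at 0 was set to 3 counts, which gives a bound. UMIs limit PCR duplication, yet the intervals cover counting error only. The text names the markers, examples of the lists, the 15 genes with the largest ratio over other cells (ranked by the lower library), the 10 genes with the largest fold between fractions in each direction, and the 5 largest differences from each comparison group; others were picked after their values were seen. A few genes that the rule names are not reported here. Levels were not scaled by gene length. Each cell was also thinned to 5000 UMIs, and Scrublet (scanpy 1.11.5) used 30 components. Endothelial cells for background shares had at least 2 UMIs of Cdh5 and 1 of Pecam1, and 3 members that also met this limit were left out of them. Positions are from GENCODE for GRCm38. Software was Python 3.11.15, numpy 2.4.6, scipy 1.17.1 and pandas 2.3.3. Simulated counts with known folds served to test the ratios and intervals.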

Additional observations from a re-analysis of the deposited data

Results flagged for a closer look

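Of the genes past 2-fold between fractions, 6 of the 22 higher and 10 of the 62 lower had the opposite sign in all other cells. For 5 of those examined by name the interval in all other cells also excluded 0. Msx1 stood at -1.73 in members and 0.19 elsewhere, Ecscr at -1.64 and 0.32, Pgf at -1.13 and 0.31, Meis3 at 1.13 and -0.14, and Rarb at 1.04 and -0.13. Each rests on under 200 UMIs in members, and with 1 library per fraction these differences were not tested. All other cells are a mix of cell types whose shares differ between the libraries. Endothelial cells made up 3.51% of tdTom+ and 1.92% of tdTom- barcodes, and splanchnic cells 6.28% and 4.07%. The part of this mix in the folds of the other cells was not tested.

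The paternally expressed gene Peg3 had a log2 ratio of members over other cells of -0.18 in the tdTom+ library and 0.25 in the tdTom- library, with intervals of -0.25 to -0.11 and 0.16 to 0.33. This difference was not tested either.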

How the results depend on the processing

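No paired analysis was possible because each fraction had 1 library. Counts of genes rest on 109 and 134 cells. The number of genes at least 4-fold higher in members, 34 of 4577 compared, became 11 of 1795 after thinning. It became 57 of 6860 and 17 of 2915 with minimums of 20 and 100 UMIs. With a minimum of 100 UMIs over all cells of each library, a setting chosen after seeing the data, it became 81 of 12348. Genes past 2-fold between fractions, 22 higher and 62 lower of 6674 compared, became 109 and 176 of 8679 with a minimum of 20 UMIs. They became 6 and 22 of 4878 with 100 UMIs and 3 and 13 of 6674 at 3-fold. In members without a Hox UMI they became 14 and 41 of 5123 (added after seeing the data, as were leaving out the chromosome 3 stretch, leaving out members with Cdh5 or Cldn5 UMIs, the reference of 3 comparison groups, and leaving out the cell with the most UMIs of a gene). Thinning left 16 higher and 22 lower genes of 3552 compared. The share of members was 0.690% and 0.984% under a stricter rule (Tbx1 at least 3, Ebf1 at least 2), 1.70% and 1.98% with Tbx1 at least 1, and 0.969% and 1.26% with the rule scaled to depth. The second heart field count of 6 became 3 after thinning. The share with a Hox UMI became 29.4% and 20.9% after thinning and 27.5% and 18.7% with at least 2 UMIs. Meis3 turned to -0.25 in members without a Hox UMI. The cause of these shifts was not tested, apart from the number of genes compared. Of 390 values of leading genes under an alternative, 338 stayed within the counting interval and 52 moved with the same sign. Of 344 values between fractions, 330 stayed, 13 moved and 1 reversed. Settings that change only a UMI minimum, a fold threshold or the set of genes counted cannot move the value of a gene. Their values are among those that stayed, so both counts overstate how stable the values were.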

Other observations

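Promoter windows from RefSeq (GRCm38.p6, the 250 bases before the start) were matched for 18 of the 36 marker and enriched genes, in 20 windows. An EBF motif (a palindrome), a T-box motif (AGGTGTGA or TCACACCT) and a forkhead motif (GTAAACA or TGTTTAC) were searched on both strands. None of the 3 was found in these windows, and they occurred in 0.779%, 1.12% and 3.17% of all 32851 windows.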
